A study of Arabidopsis thaliana with 6 samples.

Results

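The VQ motif family of Arabidopsis thaliana was followed through 6 libraries of 3′ RNA-seq. The family was taken as a list of 34 genes, VQ1 to VQ34 in the order of their locus identifiers, out of 32833 genes in the count files, and all 34 were present in every file. Wild type Col-0 was set against amiRNA-VQ1,10, a line labelled for an artificial microRNA and the genes VQ1 and VQ10, with 3 libraries of each genotype. All libraries came from whole seedlings 14 days old, grown with 1% sucrose under 16 h of light and 8 h of dark in normoxia (21% O2) and collected 4 h after lights on. The design text calls the replicates independent and biological. The sources used here give neither the sequence of the artificial microRNA nor its promoter or the number of independent lines.

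VQ proteins are small plant proteins named for a valine and glutamine pair in a short conserved motif. Through this motif many of them bind WRKY transcription factors, mainly of groups I and IIc, and raise or lower the binding of WRKY proteins to DNA. Several are phosphorylated by mitogen-activated protein (MAP) kinases during defence, and others act in seed growth, pollen, light responses and abscisic acid signalling. Artificial microRNAs are small RNAs designed to pair with chosen transcripts and bring them down.

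The motif was read from the RefSeq coding sequences of TAIR10.1. It spans 10 residues, or 30 coding bases, and was found in its full form in 32 of the 34 genes and in a variant form, without the final glycine, in VQ5 and VQ6. The coding DNA of the motif is shown for the pair named in the line, VQ1 and VQ10, for VQ16, the gene nearest to VQ10 after VQ1 together with VQ20, and for VQ19 and VQ33, a related pair of which VQ19 had the smallest p of the family. Capitals mark the codons of the valine and glutamine pair. VQ1 lies at chr1:5863843-5863872 on the minus strand, VQ10 at chr1:29502812-29502841 on the plus strand and VQ16 at chr2:17165404-17165433 on the plus strand. VQ19 lies at chr3:5148043-5148072 on the minus strand and VQ33 at chr5:21857231-21857260 on the plus strand. All 5 stretches are exonic and coding.
VQ1: ttcaagacaattGTTCAAgaactcacaggt
VQ10: ttcaagaccgttGTTCAAgaactcaccggt
VQ16: ttcagagagcttGTTCAAgaactcaccggt
VQ19: ttcaaacaagtcGTTCAGatgctcaccgga
VQ33: ttcaaacaagtcGTTCAGatgcttaccggc

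The motif DNA of VQ1 differed from that of VQ10 at 3 of 30 bases. The next genes were 7 bases from VQ1 and 6 bases from VQ10, and the median over the other members was 10 bases for each. The proteins that VQ1 and VQ10 encode, of 98 and 108 residues, were identical at 63.3% of the shorter sequence, the second highest identity among the 561 pairs of the family. Their transcripts shared at most 18 identical bases in a row, fewer than the 20 that VQ10 shared with VQ16. VQ1 shared 17 with VQ23 and 16 with VQ16. VQ genes are compact, with a single coding exon in 32 of 34 and a median coding length of 213.5 codons, from 98 in VQ1 to 421 in VQ2.

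Counts of the named targets were low. VQ1 (AT1G17147) had 5, 1 and 2 counts in the Col-0 libraries and 0, 0 and 0 in amiRNA-VQ1,10. Every Col-0 library held at least 1 count and no amiRNA-VQ1,10 library held any. Among the 10037 genes that have counts but did not pass the low-count filter, 7.28% had ranges that did not overlap between the genotypes, and 3.76% did so with amiRNA-VQ1,10 lower. Pooled over its 3 libraries VQ1 stood at 2.20 CPM (counts scaled to a library total of 1000000 counts in genes) in Col-0, between exact Poisson 95% limits of 0.952 and 4.34 CPM, and at 0 CPM in amiRNA-VQ1,10, with an upper limit of 1.15 CPM. Against 0.935 CPM, the level of 3 counts in amiRNA-VQ1,10 taken as a floor, the Col-0 point value of VQ1 was 2.36-fold higher. This fold leaves out the counting error in Col-0 and is not a lower bound. The two-sided exact permutation test over libraries gave p = 0.1, the smallest that 3 against 3 libraries can give. Ranges without overlap fix this p in advance, so it adds nothing to them. Without Col-0 replicate 1 the Col-0 level was 1.22 CPM from 3 counts, which is at the floor in counts, so that no fold can be given. VQ10 (AT1G78410), which is known to bind WRKY8 and to act in resistance to the fungus Botrytis, had 1 count in Col-0 replicate 1 and 0 in the other 5 libraries. At this depth no difference could be detected for VQ10.

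The rest of the family ranged from no counts to about the level of a typical gene. Of the 34 genes, 20 had a count in every library, 9 had counts in some, and VQ2, VQ5, VQ13, VQ20 and VQ29 had 0 counts in all 6 libraries. A count of 0 over 6 libraries allows a level of up to 0.439 CPM (3 counts), a limit that covers counting error only. The limit holds for reads placed within the annotated gene. The annotated span of VQ5 is its coding sequence alone, so reads of a transcript end beyond it would not be counted. The same holds for VQ12, which had counts. The low-count filter left 10 VQ genes, VQ4, VQ11, VQ14, VQ15, VQ16, VQ19, VQ24, VQ27, VQ32 and VQ33, which held 80.9% of the 1443 VQ counts. The 3 with most counts, VQ4, VQ16 and VQ24, held 44.3%. Over all libraries the 10 genes averaged 9.09 to 41.6 CPM with a median of 12.1 CPM, below the median of 28.3 CPM over all 12701 genes that passed the filter. Reads of 3′ libraries come from transcript ends, so these CPM are compared between genes without division by length.

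The whole family stood at nearly the same summed level in both genotypes. The 34 genes together gave 223, 202 and 230 CPM in the Col-0 libraries and 209, 205 and 198 CPM in the amiRNA-VQ1,10 libraries. The ranges overlapped, since Col-0 replicate 2 lay below the first and second amiRNA-VQ1,10 libraries. The means were 218 ± 14.2 and 204 ± 5.66 CPM (SD, n = 3), a ratio of 0.935, and 216 against 204 CPM without VQ1 and VQ10. Each library held counts of 24 or 25 VQ genes.

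No VQ gene passed the test of the genotypes. The test was the quasi-likelihood test of edgeR across all genes with Benjamini-Hochberg adjustment and a threshold of 0.05. Over all genes 13 of 12701 passed, 0.102%. At an unadjusted p under 0.05 stood 1 of the 10 tested VQ genes, VQ19, beside 6.02% of all genes. DESeq2 and limma-voom called 0 VQ genes as well. A log2 fold change (amiRNA-VQ1,10 over Col-0) below 0 was found for 7 of the 10, beside 49.3% of all genes, with a median of -0.10 for the 10 and 0.00364 for all genes. The ranges of the genotypes did not overlap for VQ19 and VQ24, beside 10.6% of all genes, and for VQ24 they overlapped once CPM were scaled by TMM, the trimmed mean of M-values.

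**Figure D1:**
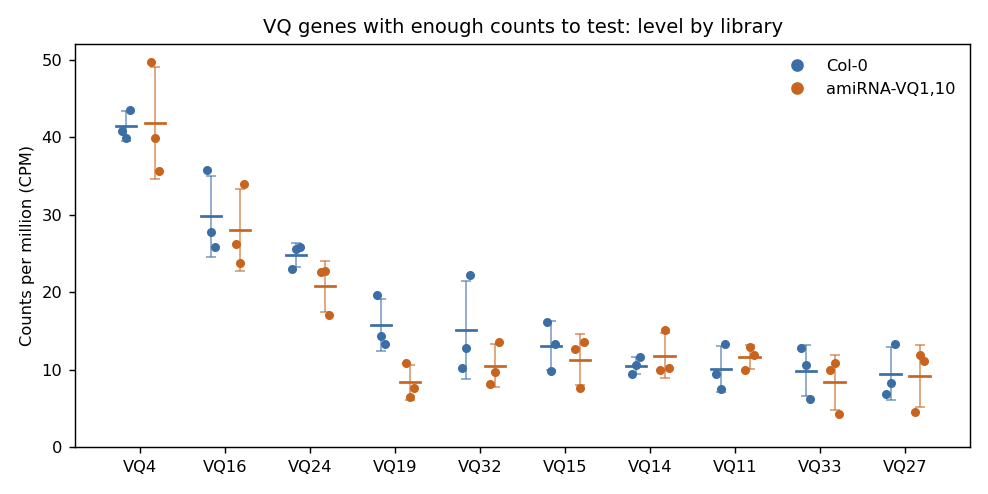
Level of the 10 tested VQ genes in CPM on a linear axis, with a point per library, the mean as a line and the SD as a bar, for Col-0 and amiRNA-VQ1,10 (3 libraries each). VQ19 has a mean of 15.7 CPM in Col-0 and 8.33 CPM in amiRNA-VQ1,10 with no overlap of points, a difference that did not pass over all genes, and VQ4 is highest in both genotypes at 41.4 and 41.8 CPM.

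The RefSeq annotation describes VQ4, VQ13, VQ19 and VQ33 as targets of the MAP kinases MPK3 and MPK6. Kinases of this class act on serine or threonine followed by proline. The encoded proteins of these 4 genes held 12, 12, 14 and 12 such sites, against a family median of 5 and a range of 0 to 18. Such numbers were not particular to these 4 genes, since VQ14, VQ6 and VQ21 held 18, 13 and 12. VQ21 is itself a substrate of MPK4, and whether VQ14 and VQ6 are kinase targets was not examined. In the family 9 genes held at least 9 sites. A site of this kind is a match of letters and was not measured here.

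VQ19 (AT3G15300) stood at 19.6, 14.3 and 13.3 CPM in the Col-0 libraries and at 10.9, 6.48 and 7.64 CPM in the amiRNA-VQ1,10 libraries. The lowest Col-0 library lay above the highest amiRNA-VQ1,10 library. These levels rest on 57 and 27 counts per genotype, for which counting alone gives an SD of 3.60 and 2.81 CPM per library, close to the observed 3.35 and 2.27 CPM. The log2 fold change was -0.87 ± 0.32 (SE, n = 3 per genotype; 95% interval -1.54 to -0.21; edgeR unadjusted p = 0.0119, adjusted p = 0.574), a ratio of 0.545. The exact two-sided permutation test over libraries gave p = 0.1, again the smallest possible and fixed in advance by ranges without overlap. The log2 fold change lay between -1.12 and -0.70 over the other fits, and its adjusted p between 0.505 and 1.00. The gene was the 4th highest of the family by counts in Col-0 and the 9th in amiRNA-VQ1,10.

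VQ33 (AT5G53830), the closest relative of VQ19, stood at 12.8, 10.5 and 6.23 CPM in Col-0 and at 9.96, 10.8 and 4.25 CPM in amiRNA-VQ1,10. The ranges overlapped over most of their width, and the log2 fold change was -0.27 (95% interval -1.08 to 0.55). VQ4 (AT1G28280) stood at 40.8, 39.9 and 43.6 CPM in Col-0 and at 49.8, 39.9 and 35.7 CPM in amiRNA-VQ1,10. The amiRNA-VQ1,10 libraries lay on both sides of the Col-0 range, and the log2 fold change was 0.03, with the narrowest interval of the family, -0.33 to 0.39. On the fold scale that interval runs from 0.798 to 1.31. VQ13 (AT2G33780), the closest relative of VQ4, had no count in any library.

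VQ16 and VQ23, also SIB2 and SIB1, are sigma factor binding proteins that enter chloroplasts and, with WRKY33, act in defence against Botrytis. VQ16 (AT2G41180) stood at 35.7, 27.8 and 25.8 CPM in Col-0 and at 26.2, 23.8 and 33.97 CPM in amiRNA-VQ1,10. The ranges overlapped, with a log2 fold change of -0.05 (95% interval -0.49 to 0.38). Among the tested VQ genes VQ16 alone overlaps another annotated gene, AT2G41178, over all 920 bases of VQ16 on the opposite strand. AT2G41178 had 2, 3 and 0 counts in Col-0 and 0, 0 and 1 in amiRNA-VQ1,10. The strand setting of the counting is not stated, so how reads of the pair were assigned is not known. VQ23 (AT3G56710) had 2, 1 and 4 counts in Col-0 and 2, 3 and 3 counts in amiRNA-VQ1,10.

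The other VQ genes of defence were sparse. VQ21, also MKS1, a substrate of MPK4 that binds WRKY33, had 3, 4 and 4 counts in Col-0 and 4, 5 and 7 in amiRNA-VQ1,10, a ratio of pooled CPM of 1.65 with an exact counting interval of 0.717 to 3.92. Over 159 bases VQ21 overlaps AT3G18680 on the opposite strand, a gene at 45.4 CPM in Col-0 and 45.0 CPM in amiRNA-VQ1,10, so its counts are uncertain. VQ22, also JAV1, a repressor of jasmonate defence that is degraded on wounding, had 3, 3 and 5 counts in Col-0 and 3, 2 and 5 in amiRNA-VQ1,10. VQ12, known with VQ29 as a negative regulator of resistance to Botrytis, had 2 counts in Col-0 and 5 in amiRNA-VQ1,10. All 345 bases of VQ12 lie within AT2G22870 on the opposite strand, a gene at 29.3 CPM in Col-0 and 25.4 CPM in amiRNA-VQ1,10, so its counts are uncertain. The annotated span of VQ12 is also its coding sequence alone, so reads of a transcript end beyond it would not be counted. VQ29, which also acts in hypocotyl growth in the light, had no count. VQ9, a partner of WRKY8 in salt responses, had 6 counts in each genotype. None of these genes had a counting interval of its ratio that left out 1.

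VQ15, also CAMBP25, binds calmodulin and is known to lower tolerance of osmotic stress. VQ15 (AT2G41010) stood at 16.2, 9.78 and 13.3 CPM in Col-0 and at 12.7, 7.56 and 13.6 CPM in amiRNA-VQ1,10. The ranges overlapped, and the log2 fold change was -0.15 (95% interval -0.81 to 0.51). VQ24 (AT3G56880), its closest relative, stood at 23.0, 25.6 and 25.8 CPM in Col-0 and at 22.6, 22.7 and 16.99 CPM in amiRNA-VQ1,10. The gap between the lowest Col-0 and the highest amiRNA-VQ1,10 library was small, and amiRNA-VQ1,10 replicate 3 lay well below the other libraries. The log2 fold change of VQ24 was -0.25 ± 0.22 (SE; 95% interval -0.71 to 0.21; edgeR adjusted p = 0.944).

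Among genes of seed and pollen, VQ14, also IKU1, which controls endosperm growth and seed size together with WRKY10, was the one with a level that could be tested. VQ14 (AT2G35230) stood at 9.36, 10.5 and 11.6 CPM in Col-0 and at 9.96, 15.1 and 10.2 CPM in amiRNA-VQ1,10. The ranges overlapped, with amiRNA-VQ1,10 replicate 2 above all others, and the log2 fold change was 0.16 (95% interval -0.50 to 0.81). VQ18 and VQ26, known to bind the abscisic acid regulator ABI5 in germinating seeds, had 6 and 2 counts in Col-0 and 9 and 4 in amiRNA-VQ1,10. VQ20, which acts in pollen with WRKY2 and WRKY34, had no count, as did WRKY34. VQ8, whose loss gives pale plants, had 4, 2 and 3 counts in Col-0 and 5, 1 and 5 in amiRNA-VQ1,10.

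VQ32 (AT5G46780) stood at 10.2, 12.8 and 22.2 CPM in Col-0 and at 8.15, 9.72 and 13.6 CPM in amiRNA-VQ1,10. Its Col-0 range was the widest of the tested members, with replicate 3 far above the others, and the log2 fold change was -0.47 (95% interval -1.16 to 0.22). Without Col-0 replicate 3 it was -0.11. VQ11 (AT1G80450) stood at 9.36, 7.52 and 13.3 CPM in Col-0 and at 9.96, 13.0 and 11.9 CPM in amiRNA-VQ1,10, with a log2 fold change of 0.23 (95% interval -0.45 to 0.91). All its amiRNA-VQ1,10 libraries lay within the Col-0 range. VQ27 (AT4G15120) stood at 6.80, 8.27 and 13.3 CPM in Col-0 and at 4.53, 11.9 and 11.04 CPM in amiRNA-VQ1,10, with a log2 fold change of -0.03 (95% interval -0.84 to 0.77). Its ranges overlapped, with amiRNA-VQ1,10 replicate 1 the lowest of all libraries.

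**Figure D2:**
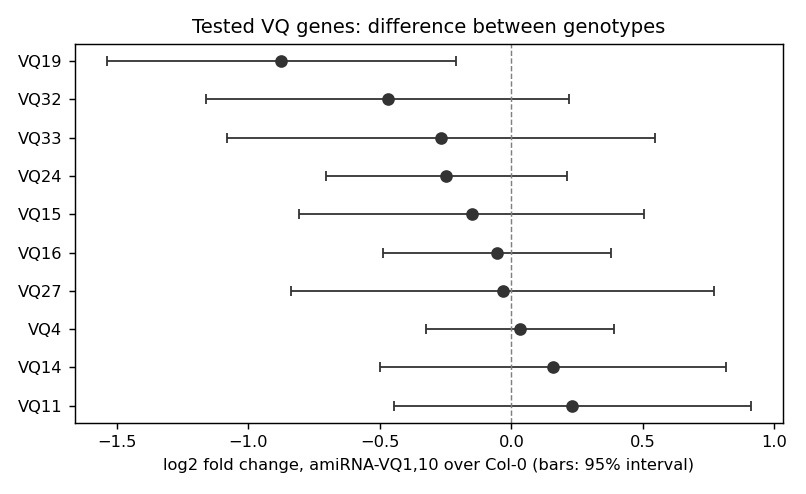
Log2 fold change of amiRNA-VQ1,10 over Col-0 for the 10 tested VQ genes (points) with 95% intervals from the edgeR fit (bars), for 3 libraries per genotype. The interval of VQ19, -1.54 to -0.21, is the one of the 10 that leaves out 0, before adjustment over genes.

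In the order of Col-0 levels, VQ4 stood above VQ16 and VQ24 above VQ19 without overlap of libraries in either genotype. VQ16 and VQ24 overlapped in Col-0 and were separate in amiRNA-VQ1,10. From VQ19 down through VQ32, VQ15, VQ14, VQ11, VQ33 and VQ27 each gene overlapped the next in both genotypes, so that neighbours among these 7 genes did not differ beyond their spread.

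The 19 VQ genes with counts that did not pass the filter were led by VQ34 (AT5G65170), at 9, 10 and 4 counts in Col-0 and 8, 7 and 6 in amiRNA-VQ1,10. VQ30 (AT4G39720) followed with 5, 4 and 6 counts in Col-0 and 6, 5 and 6 in amiRNA-VQ1,10. VQ6 (AT1G32610) had 4, 7 and 8 counts in Col-0 and 4, 3 and 0 in amiRNA-VQ1,10. Its pooled level was 5.23 CPM in Col-0 and 2.18 CPM in amiRNA-VQ1,10, a ratio of 0.417 whose exact counting interval of 0.148 to 1.04 holds 1. VQ25 (AT3G58000) had 0, 5 and 3 counts in Col-0 and 3, 0 and 1 in amiRNA-VQ1,10. VQ7 and VQ28 had 5 counts each in Col-0 and 6 each in amiRNA-VQ1,10. VQ3 had 0 counts in Col-0 and 1, 0 and 2 in amiRNA-VQ1,10, VQ31 had 0 in Col-0 and 1 in each amiRNA-VQ1,10 library, and VQ17 had 1 and 0. VQ31 overlaps AT5G08490 on the opposite strand over 1782 bases. Pooled CPM were higher in amiRNA-VQ1,10 for 14 of the 19 genes and lower for 5, VQ1, VQ6, VQ10, VQ17 and VQ25, while 49.2% of all genes of this kind were higher. The CPM ranges did not overlap for 4 of the 19, beside 7.28% of all genes of this kind. They were lower in amiRNA-VQ1,10 for VQ1 and higher for VQ12, VQ21 and VQ31. The counting interval left out 1 for VQ1 alone among the 19, beside 2.65% of all genes of this kind, and reached up to a ratio of 0.663. This interval covers counting error only, and 5 of the 8 VQ1 counts lie in Col-0 replicate 1. In the edgeR fit with no filter none of the 29 VQ genes with a count passed.

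**Figure D3:**
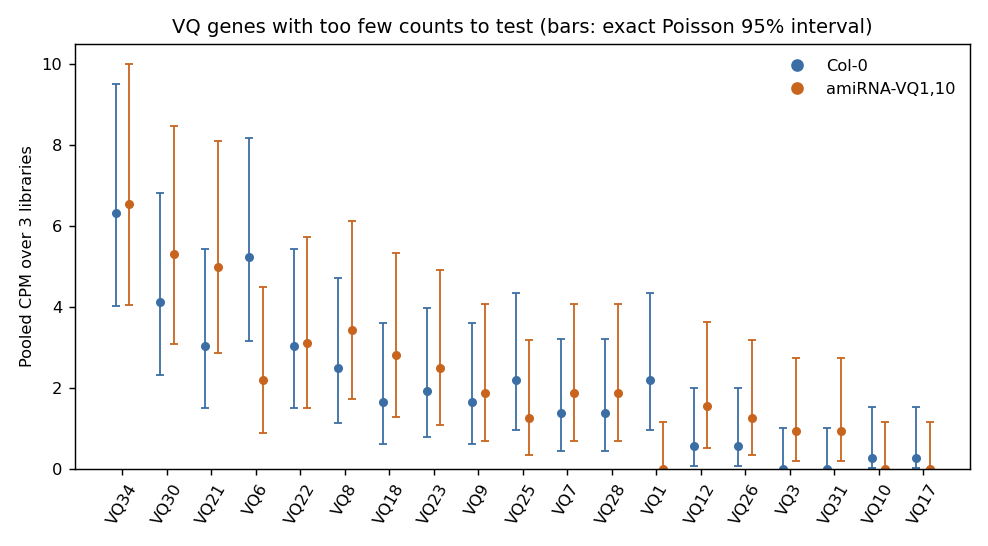
CPM pooled over the 3 libraries of a genotype for the 19 VQ genes that have counts and did not pass the filter (points), with exact Poisson 95% intervals that cover counting error only (bars). VQ1 is at 2.20 CPM in Col-0 and 0 in amiRNA-VQ1,10, and the intervals of the genotypes overlap for all 19 genes.

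Some close relatives within the family stood at unlike levels and others at like ones. Of the 34 genes, 24 formed 12 pairs in which each protein was the nearest to the other, and both genes were tested in 2 pairs, VQ15 with VQ24 and VQ19 with VQ33. SIB2 (VQ16) had 199 counts over the 6 libraries and SIB1 (VQ23) 15, a 13.3-fold difference at an encoded identity of 58.9%. VQ4 had 284 counts and VQ13 none, at 62.7%. VQ14 had 75 counts and VQ6 26, a 2.88-fold difference, and VQ27 had 63 and VQ22 21, a 3.00-fold difference. VQ24 had 156 counts and VQ15 84, a 1.86-fold difference. VQ19 and VQ33 had 57 and 36 counts in Col-0 and 27 and 26 in amiRNA-VQ1,10, a mean of 8.33 CPM for each there. In the pairs with few counts VQ18 had 15 and VQ26 6, VQ8 had 20 and VQ20 none, VQ25 had 12 and VQ17 1, and VQ12 had 7 and VQ29 none. VQ2 and VQ3, the most alike pair at 82.4%, share 134 identical bases in a row, so reads of these 2 genes may not have been placed and their counts of 0 and 3 are uncertain. In all other pairs the longest shared stretch was 25 bases or less.

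**Figure D4:**
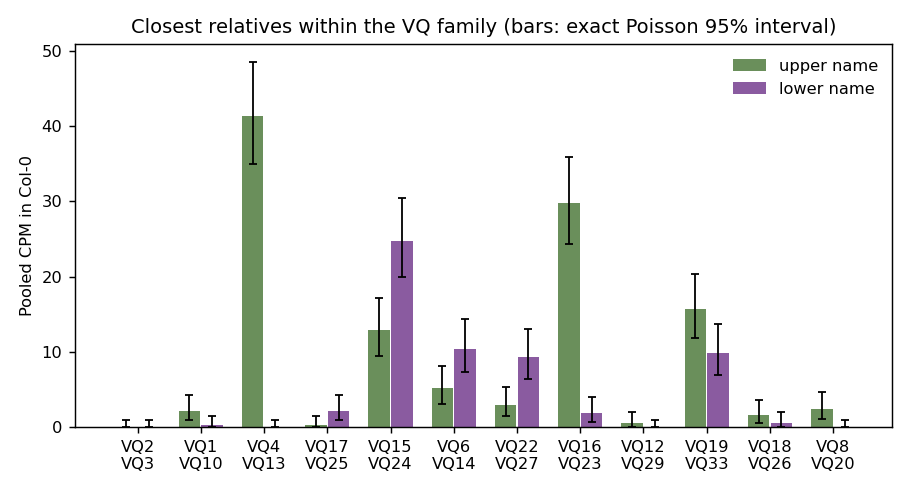
CPM pooled over the 3 Col-0 libraries for the 12 pairs of closest relatives in the VQ family (bars from 0), in the order of encoded identity, with exact Poisson 95% intervals. VQ4 (41.3 CPM) stands beside VQ13 (0) and VQ16 (29.8 CPM) beside VQ23 (1.93 CPM).

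WRKY proteins bind W-boxes, whose core is TTGAC. Within 250 bases before and 50 bases after the annotated gene start this core was found, on either strand, in 19 of the 34 VQ genes (55.9%) and in 50.5% of 27443 nuclear protein-coding genes. VQ11 and VQ21 held 4 cores each. VQ1, VQ10, VQ4 and VQ19 held none in this window.

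The known partners of VQ proteins were read from the same fit. None of the 19 tested genes among 50 partners and WRKY33 targets passed, beside 0.102% of all genes, and none was under an unadjusted p of 0.05. Of the 14 WRKY genes of group I, 7 were tested, 6 above 0 and 1 below, with a median log2 fold change of 0.13 and the smallest p for WRKY20, at 0.28 ± 0.22 (SE), and WRKY1, at -0.15 ± 0.17 (SE). WRKY33, the partner of SIB1, SIB2 and MKS1 in defence, had 7, 7 and 6 counts in Col-0 and 4, 4 and 8 in amiRNA-VQ1,10 and was not tested. Of 18 WRKY genes of group IIc only WRKY23 and WRKY57 were tested, at 0.06 ± 0.39 and -0.02 ± 0.27 (SE). WRKY8, the partner of VQ9 and VQ10, had 2, 6 and 1 counts in Col-0 and 4, 5 and 4 in amiRNA-VQ1,10.

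Of 9 genes of the MAP kinase modules 7 were tested, 2 above 0 and 5 below, with a median of -0.13. MKK2 and MKK5 had the smallest p, with log2 fold changes of -0.24 ± 0.18 and 0.18 ± 0.19 (SE). MPK3, MPK4 and MPK6 stood at -0.07, -0.14 and -0.13. SIG1, the chloroplast sigma factor that gave SIB1 its name, stood at 0.19 ± 0.13 (SE), and PIF1, a partner of VQ29, at 0.08 ± 0.21 (SE). ABI5, the partner of VQ18 and VQ26, had 0, 1 and 2 counts in Col-0 and 3, 1 and 3 in amiRNA-VQ1,10, and JAZ8 had none. Of 5 targets of WRKY33 in camalexin and ethylene synthesis ACS6 was tested, at 0.60 ± 0.35 (SE; edgeR adjusted p = 0.858). The other 4 had too few counts to test and lower mean levels in amiRNA-VQ1,10. Of all genes with counts that did not pass the filter, 49.2% had a higher pooled CPM in amiRNA-VQ1,10. CYP71A12 had 18, 8 and 10 counts in Col-0 and 5, 8 and 3 in amiRNA-VQ1,10, and PAD3 had 9, 6 and 9 against 5, 5 and 9. ACS2 had 3, 4 and 5 counts in Col-0 and 0, 2 and 2 in amiRNA-VQ1,10, and CYP71A13 had 2, 1 and 1 against 0, 0 and 0. For ACS2 and CYP71A13 the CPM ranges did not overlap, as for 3.76% of all genes under the filter in this direction.

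Of the genes next to VQ genes 23 were tested, and 1 passed, beside 0.102% of all genes. AT2G41190, 1168 bases from VQ16 on the opposite strand and not overlapping it, had 50, 43 and 65 counts in Col-0 and 20, 21 and 22 in amiRNA-VQ1,10. It fell by 1.13 on the log2 scale (edgeR adjusted p = 0.0478), while VQ16 itself stood at -0.05. The call was kept in 4 of 12 alternative fits. Other scalings gave edgeR adjusted p = 0.0479 and 0.0411, and the fit with no filter gave 0.000109. Of the 6 fits with a library left out 1 kept it, the one without Col-0 replicate 2 (adjusted p = 0.00384). The other 5 had adjusted p of 0.0584 to 0.225. DESeq2 and limma-voom did not call it (adjusted p = 0.294 and 0.122), and its log2 fold change lay between -1.32 and -0.90 over all alternatives.

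The totals over genes ranged from 926209 to 1329817 counts per library, with the lowest in amiRNA-VQ1,10 replicate 2. Leaf markers were high in all libraries, with a sum of 4 genes of 16015 to 16118 CPM in Col-0 and 16843 to 17476 CPM in amiRNA-VQ1,10. The 6 root markers summed to 1226 to 1447 CPM and to 1273 to 1560 CPM, a sum carried by BGLU23 at 1009 ± 65.5 and 1162 ± 196 CPM (SD, n = 3). SHR was also higher by mean in amiRNA-VQ1,10, and IRT1, SCR, MYB36 and PLT1 were lower, IRT1 at 223 ± 89.5 and 158 ± 54.9 CPM. The log2 fold changes of all 4 leaf markers were above 0. Ranges did not overlap for SCR, which was lower, and for RBCS1A and PSBO1, which were higher, beside 10.6% of all genes. The edgeR unadjusted p was under 0.05 for RBCS1A, BGLU23 and IRT1, beside 6.02% of all genes. None of the markers passed over all genes. The 3 seed markers summed to 4.25, 0 and 0.890 CPM in Col-0 and to 0 in each amiRNA-VQ1,10 library, and both pollen markers were at 0 in all libraries. The 4.25 CPM are 5 counts of CRA1 in Col-0 replicate 1, the library that also held 5 of the 8 VQ1 counts and the count of VQ10. The part of these markers in the VQ levels was not tested. In whole seedlings fewer cells of a type and less RNA per cell cannot be told apart.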

How the data were processed

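The authors deposited 1 file per library with raw, unnormalized counts for each gene. STAR, HISAT2 2.0.4, DESeq2 and the build TAIR10 are named in the submitters' processing notes, without roles. Per the labels' protocols, primers carried molecular identifiers of 6 bp. The sources used here do not state the counting program, its strand setting or whether reads were collapsed by identifier. Rows that name no gene (reads outside genes, 3.79% to 4.07% of a library, in several genes or with several alignments) stayed out of totals and tests.

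CPM are counts scaled to 1000000 counts in genes per library. Genotypes were compared with edgeR 4.0.16 (filterByExpr, TMM scaling, quasi-likelihood test, adjustment over 12701 genes) in R 4.3.3. SE was obtained by dividing the log2 fold change by the root of the F statistic. Replicates differed by more than sampling noise (chi-square per degree of freedom 1.24 to 1.58). The test was checked on simulated data. Alternatives were other scalings and filters, DESeq2 1.42.0, limma-voom (limma 3.58.1), a replicate block, a threshold of 0.01 and each library left out. Intervals and floors (3 counts) cover counting error only.

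VQ numbers follow the locus order. RefSeq TAIR10.1 gave sequences, overlaps and neighbours. The count files hold no coordinates. Members and lists were chosen with earlier results of these data known. All members are named. Of each partner list the genes past the threshold and the 2 with the smallest p are named, and neighbours where past the threshold. Further genes were named after their values were seen.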

Additional observations from a re-analysis of the deposited data

How the results depend on the processing

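No VQ gene and no partner gene passed in any fit run. The count over all genes, 13 as reported, was 92 with no filter, 6 with a strict filter (50 counts in 3 libraries, which leaves no VQ gene), 7 at an adjusted p under 0.01, 6 by DESeq2 and 8 by limma-voom. It was 10 to 37 with a library left out, the highest without Col-0 replicate 2, and 22 without amiRNA-VQ1,10 replicate 3. With the replicate block it was 16, and AT2G41190 had an adjusted p of 0.0599. Libraries with the same number did not deviate together from the means of their genotypes (correlations of -0.032 to -0.00651). Most genes have few counts, so counting noise can hide a shared deviation. These values cannot decide whether libraries with the same number were handled together.

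Of 120 values of the tested VQ genes under the alternatives 111 kept their direction, those of VQ11, VQ19, VQ24 and VQ32 in all fits that tested them. All 9 reversals came from leaving out a library. With a library left out the log2 fold change ran from -0.12 to 0.15 for VQ4 (reversed without amiRNA-VQ1,10 replicate 1), -0.034 to 0.25 for VQ14 (without amiRNA-VQ1,10 replicate 2), and -0.34 to 0.041 for VQ15 and -0.22 to 0.091 for VQ16 (each without Col-0 replicate 1 or amiRNA-VQ1,10 replicate 2). It ran from -0.23 to 0.29 for VQ27 (reversed without Col-0 replicate 3 or amiRNA-VQ1,10 replicate 1) and -0.49 to 0.081 for VQ33 (without amiRNA-VQ1,10 replicate 3). The cause was not tested. The log2 ratio of the family sum was -0.10, and -0.15 to -0.06 with a library left out. Depth limits what can be seen: 24 of the 34 genes had too few counts to test.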
